A study of Rattus norvegicus with 74 samples.

Results

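The miR-34 microRNAs were followed across the life cycle in whole kidney of untreated male and female F344 (Fischer) rats, an inbred strain widely used in toxicology. Kidneys came from animals of 2, 5, 6 or 8 weeks and of 15, 21, 78 or 104 weeks, and the total RNA of 1 animal was hybridised to each of 74 single-colour rat miRNA arrays. Each of the 16 groups of one sex and age held 4 or 5 animals, with 4 in the 8- and 104-week males and in the 2-, 5-, 8- and 21-week females. No group was labelled as treated or genetically modified, and the groups stood for age and sex. Because ground tissue was used, fewer cells of a type and less RNA per cell cannot be told apart in any value given here. Members were the probe-targeted mature miRNAs, of either arm, named miR-34a, miR-34b, miR-34c or miR-449a that were detected on at least 1 array. Of 8 such miRNAs on the array, 3 were detected, rno-miR-34a-5p on 74 of 74 arrays, rno-miR-34b-5p on 73 and rno-miR-34c-5p on 74, among 311 detected miRNAs of 677 on the array. The 3p arms of the family and miR-449a were detected on no array. The species prefix is left out from here on.

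MicroRNAs are short RNAs that bind partly complementary sites in messenger RNAs, mostly through the seed near their 5′ end, and lower the output of those messages. The miR-34 family is induced by the tumour suppressor p53 and is known for arresting the cell cycle and promoting senescence, the lasting arrest that accumulates in ageing tissue, by targeting cyclins, cyclin-dependent kinases, MYC, BCL2 and the deacetylase SIRT1. miR-34a comes from a gene of its own and is expressed in many tissues, whereas miR-34b and miR-34c are cut from a shared primary transcript and are best known from multiciliated epithelia and testis.

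The mature sequences of the detected members are shown because the seed defines the family and because the near identity of miR-34b and miR-34c bears on how far their probes can be told apart. Sequences were taken from RefSeq (GRCr8), are written 5′ to 3′, and carry the seed, bases 2 to 8, in capitals.
miR-34a-5p: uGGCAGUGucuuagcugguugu
miR-34b-5p: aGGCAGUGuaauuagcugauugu
miR-34c-5p: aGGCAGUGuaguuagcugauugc
The mature miR-34a-5p lies at chr5:165815971-165815992 on the plus strand, miR-34b-5p at chr8:60306657-60306679 on the minus strand and miR-34c-5p at chr8:60306133-60306155 on the minus strand. The hairpins of miR-34b and miR-34c are 441 bases apart. In RefSeq, 5 of 693 mature rat miRNA names carried this seed, and the other two, miR-449a-5p and miR-449c-5p, were detected on no array. miR-34b-5p and miR-34c-5p are identical at 21 of 23 bases and differ by A11G and U23C, with the base of miR-34b first and positions counted from the 5′ end. The longest run that miR-34a-5p shares with either of them is 8 bases.

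Signals were read as Agilent total gene signals, divided by the 75th percentile of the 311 detected miRNAs on the same array, and are called normalised intensity, so that 1 is the level of that percentile. The 75th percentile ran from 81.2 to 283 and 190 to 264 miRNAs were detected per array. The total gene signal of miR-34a-5p ran from 36.0 to 801, whereas miR-34b-5p reached at most 32.8 and miR-34c-5p lay between 4.30 and 37.5, above a lowest detected signal of 1.39. The number of arrays limits the precision of all values. Each member has 2 probes, and the total gene signal adds up only those called detected on that array: for miR-34a-5p both probes on 74 of 74 arrays, for miR-34b-5p both on 46 arrays and the brighter probe alone on 27, and for miR-34c-5p both on 25 arrays and 1 probe alone on 49. A summation of both probes on every array was therefore set beside the results for these dim members. The 6 kidney epithelial marker miRNAs were detected on 74 of 74 arrays. Of the muscle miRNAs, miR-1-3p and miR-133a-3p were detected on none, miR-133b-3p on 74 and miR-206-3p on 17 arrays, and of the neuronal miRNAs, miR-124-3p was detected on none and miR-9a-5p on 74.

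miR-34a-5p, the main family member of most tissues, rose in both sexes in 2 steps, between 2 and 5 weeks and between 21 and 78 weeks. Its normalised intensity in 2-week females was 0.432, 0.451, 0.460 and 0.523 (mean 0.466 ± 0.0393, SD, n = 4), and in 8-week females it was 0.897, 0.918, 0.957 and 1.0 (0.943 ± 0.0453, n = 4). In 2-week males it was 0.402, 0.463, 0.463, 0.487 and 0.492 (0.462 ± 0.0359, n = 5), and in 8-week males 0.970, 1.0, 1.0 and 1.14 (1.03 ± 0.0752, n = 4). Every 8-week animal lay above every 2-week animal of either sex, and the 2 sexes overlapped at both ages. Here and below, statements on overlap of groups only describe the single arrays. The share of all 311 miRNAs with groups that far apart was not counted. From 2 to 8 weeks the log2 difference was 1.02 ± 0.12 (SE) in females, 2.03-fold (limma, adjusted p = 3.53e-11), and 1.16 ± 0.11 in males, 2.23-fold (limma, adjusted p = 4.19e-14). A change counted as called when it was at least 1.5-fold with an adjusted p below 0.05, which held for 21.2% of the 311 miRNAs in females and 29.9% in males over the same interval. In the direction of miR-34a-5p, 8.68% of miRNAs were called higher at 8 weeks in females and 15.1% in males. Most of this rise was already present at 5 weeks, when the arrays ran from 0.846 to 1.23 in females and from 0.819 to 1.16 in males, 2.12-fold (limma, adjusted p = 9.51e-12, 20.3% of miRNAs called) and 2.10-fold (limma, adjusted p = 9.59e-14, 24.8% called) above 2 weeks.

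Between 5 and 15 weeks miR-34a-5p stayed on a plateau. Group means lay between 0.943 and 1.08 in females and between 0.977 and 1.14 in males, and the individual arrays ran from 0.672, in a 6-week male, to 1.27, in a 15-week male. The 15-week values were 0.933, 1.03, 1.04, 1.19 and 1.21 in females (1.08 ± 0.115, n = 5) and 1.06, 1.09, 1.14, 1.17 and 1.27 in males (1.14 ± 0.0807, n = 5). At 21 weeks they were 1.32, 1.33, 1.41 and 1.43 in females (1.37 ± 0.0545, n = 4) and 1.38, 1.39, 1.40, 1.44 and 1.56 in males (1.44 ± 0.0729, n = 5). All 21-week animals lay above all 15-week animals of their sex, but the log2 differences of 0.35 in females (limma, adjusted p = 0.139) and 0.33 in males (limma, adjusted p = 0.0414) were under the fold required for a call.

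The second rise carried miR-34a-5p to its highest levels. At 78 weeks the normalised intensity was 2.10, 2.25, 2.41, 2.44 and 2.54 in females (2.35 ± 0.170, n = 5) and 2.28, 2.41, 2.44, 2.79 and 3.03 in males (2.59 ± 0.311, n = 5). At 104 weeks it was 2.48, 2.58, 2.62, 2.73 and 2.87 in females (2.66 ± 0.150, n = 5) and 2.58, 2.84, 3.04 and 3.62 in males (3.02 ± 0.444, n = 4). All animals of 78 and 104 weeks lay above all younger animals, whereas the 78- and 104-week groups overlapped within each sex. The step from 21 to 78 weeks was 0.77 ± 0.11 on the log2 scale in females, 1.71-fold (limma, adjusted p = 3.47e-07), and 0.84 ± 0.10 in males, 1.79-fold (limma, adjusted p = 2.91e-09), in an interval where 4.18% of miRNAs were called in females and 10.9% in males. The further differences from 78 to 104 weeks, 0.18 in females (limma, adjusted p = 0.290) and 0.22 in males (limma, adjusted p = 0.334), did not pass.

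From 15 to 104 weeks, the span from young adult to aged kidney, miR-34a-5p rose by 1.31 ± 0.10 (log2, 95% interval 1.10 to 1.51), 2.47-fold, in females (limma, adjusted p = 3.11e-16) and by 1.39 ± 0.11 (1.17 to 1.61), 2.62-fold, in males (limma, adjusted p = 4.97e-16). By the size of the increase it ranked 2 of 311 in females and 7 in males, where 2.25% and 7.72% of miRNAs were called higher. In either direction 5.79% and 13.2% were called. Over the whole course from 2 to 104 weeks the difference was 5.70-fold in females and 6.51-fold in males, where 24.8% and 35.4% of miRNAs were called. In the order of its levels, the steps from 2 weeks to the next level and from 21 to 78 weeks were called in each sex, and no other neighbours were. Slides carried several groups, and on each of the 4 slides that held both ages the 104-week animals exceeded the 15-week animals, by 1.20 to 1.49 in females and by 1.24 to 1.77 in males on the log2 scale. Most slides held either ages 2 to 8 weeks or ages 15 to 104 weeks, and 1 array, of a 15-week female, linked the 2 sets. Without that array, differences across that boundary, including those from 2 to 104 weeks, cannot be told apart from a difference between the 2 sets of slides. With slide as a fixed block, which across the boundary rests on that 1 array, the 2- to 104-week log2 difference was 2.57 ± 0.19 in females and 2.79 ± 0.19 in males.

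**Figure D1:**
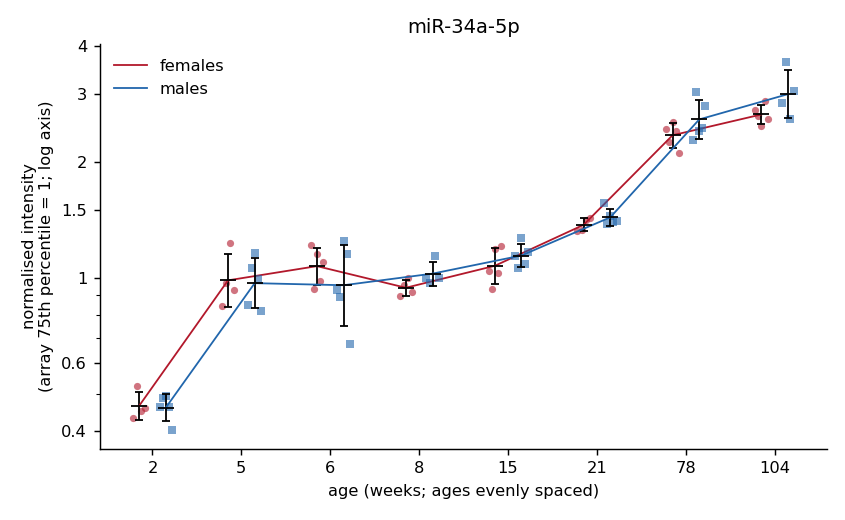
Normalised intensity of miR-34a-5p (log axis, 75th percentile of the array = 1) against age in weeks, with ages evenly spaced. Points are single arrays, red circles females and blue squares males, and black bars give the mean ± SD on the log2 scale of each group, joined by lines. Both sexes sit between 0.402 and 0.523 at 2 weeks, on a plateau near 1 from 5 to 15 weeks and between 2.10 and 3.62 at 78 and 104 weeks.

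miR-34a-5p showed no sex difference that passed at any of the 8 ages. Male minus female differences ran from -0.16 at 6 weeks to 0.18 at 104 weeks on the log2 scale, the latter with a limma adjusted p of 0.299, and the sexes overlapped at every age. The test of whether the course over age differed between the sexes gave a limma adjusted p of 0.593. For the 15- to 104-week rise, the males' change exceeded the females' by 0.09 ± 0.15 (log2, 95% interval -0.21 to 0.39).

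miR-34c-5p, from the miR-34b/c transcript, followed another course, high at 2 weeks, lower through young adult life. Its highest group mean was that of 2 weeks in females and that of 104 weeks in males, where 2 and 104 weeks differed by 0.06 on the log2 scale (limma, adjusted p = 0.967). These comparisons cross the 2 sets of slides, which 1 array links. With slide as a fixed block, 15 minus 2 weeks gave -0.66 ± 0.42 in females and -1.02 ± 0.48 in males. For 21 minus 2 weeks it gave -0.79 ± 0.49 and -1.13 ± 0.48, and none of these was called. Female 78 minus 2 weeks, -1.33 ± 0.48, was called, and male 104 minus 2 weeks was 0.25 ± 0.48. Its normalised intensity was 0.146, 0.150, 0.156 and 0.207 in 2-week females (0.165 ± 0.0287, n = 4) and 0.107, 0.132, 0.138, 0.142 and 0.157 in 2-week males (0.135 ± 0.0183, n = 5). By 5 weeks it was 0.0741, 0.0785, 0.0832 and 0.0913 in females (0.0818 ± 0.00738, n = 4), all below the 2-week females, and the log2 difference was -1.0 ± 0.24 (limma, adjusted p = 0.000729, 20.3% of miRNAs called). Both probes of miR-34c-5p were detected on 4 of 4 arrays of 2-week females and on 0 of 4 of 5-week females. The size and separation of this fall thus compare the sum of both probes with 1 probe alone. In 8-week males it was 0.0733, 0.0767, 0.0773 and 0.0917 (0.0797 ± 0.00817, n = 4), all below the 2-week males, with a log2 difference of -0.76 ± 0.23 (limma, adjusted p = 0.00494). With both probes summed, that male fall was 0.56 in size on the log2 scale and under the fold for a call. The 8-week females spread widely, at 0.0788, 0.116, 0.149 and 0.190, and their difference from 2 weeks, -0.36, did not pass (limma, adjusted p = 0.285).

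The late course of miR-34c-5p separated the sexes. In males it was lowest at 15 weeks, with 0.0518, 0.0524, 0.0560, 0.0623 and 0.0672 (0.0579 ± 0.00667, n = 5), and at 21 weeks, with 0.0479, 0.0495, 0.0541, 0.0546 and 0.0605 (0.0533 ± 0.00493, n = 5). It was 0.0614, 0.0683, 0.0799, 0.0887 and 0.219 in 78-week males (0.103 ± 0.0655, n = 5) and 0.0889, 0.133, 0.169 and 0.192 in 104-week males (0.146 ± 0.0450, n = 4). Every 104-week male lay above every 15- and 21-week male, and the 104-week males overlapped the 2-week males. From 15 to 104 weeks males rose by 1.28 ± 0.23 (log2, 95% interval 0.82 to 1.74), 2.43-fold (limma, adjusted p = 1.1e-05, the increase of rank 11 of 311), where 7.72% of miRNAs were called higher. Both probes of miR-34c-5p were detected on 0 of 5 male arrays at 15 weeks and on 3 of 4 at 104 weeks. The size and rank of this rise thus compare 1 probe alone with mostly the sum of both.

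In females miR-34c-5p was 0.0764, 0.0846, 0.0988, 0.102 and 0.102 at 15 weeks (0.0927 ± 0.0116, n = 5) and 0.0729, 0.0732, 0.0815 and 0.102 at 21 weeks (0.0823 ± 0.0135, n = 4). It was 0.0502, 0.0529, 0.0547, 0.0573 and 0.0617 at 78 weeks (0.0554 ± 0.00437, n = 5), and 0.0792, 0.0796, 0.0816, 0.106 and 0.122 at 104 weeks (0.0937 ± 0.0194, n = 5). The 78-week females lay below all 15-, 21- and 104-week females, and the 15- and 104-week females overlapped. The fall from 15 to 78 weeks was -0.74 ± 0.22 (limma, adjusted p = 0.0285, 2.89% of miRNAs called, but -0.67 and not called with slide as a fixed block, adjusted p = 0.0807) and the rise from 78 to 104 weeks 0.74 (limma, adjusted p = 0.0290, 3.86% called), while 104 minus 15 weeks gave 0.00 ± 0.22 (95% interval -0.43 to 0.44). No 78-week female array had both probes of miR-34c-5p detected, against 3 of 5 at 15 weeks, and with both probes summed on every array the 15- to 78-week difference was -0.52 with a limma adjusted p of 0.0501. The fall was also not called without any of 15-week replicates 2, 3 or 5 or 78-week replicates 1 or 3, nor the rise without any of 104-week replicates 1, 2 or 4 or 78-week replicates 3 or 6.

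miR-34b-5p, the partner of miR-34c in the shared transcript, showed its clearest change in ageing males. In 15-week males it was detected on 4 of 5 arrays, at 0.0511, 0.0640, 0.0698 and 0.0824 (0.0668 ± 0.0130 over the 4 detected). It was 0.0464, 0.0517, 0.0611, 0.0648 and 0.109 in 21-week males, 0.0779, 0.0853, 0.0987, 0.101 and 0.159 in 78-week males (0.104 ± 0.0318, n = 5) and 0.105, 0.116, 0.146 and 0.154 in 104-week males (0.130 ± 0.0237, n = 4). Every 104-week male lay above every 15-week male, whereas a single 21-week male at 0.109 reached into the 104-week range. With the undetected array set to the floor of 0.0171, the rise from 15 to 104 weeks was 1.35 ± 0.29 (log2, 95% interval 0.78 to 1.93), 2.56-fold (limma, adjusted p = 0.000166). The undetected array had probe signals of 1.44 and 4.82, whose sum corresponds to 0.0657, within the range of the other 15-week males, and with both probes summed on every array the rise was 0.85 ± 0.15 (limma, adjusted p = 5.96e-06). Under normexp background correction with an added offset of 50, the male differences from 15 to 104 weeks were -0.0150 for miR-34b-5p and 0.0156 for miR-34c-5p, and neither was called. The median difference of all miRNAs was -0.19 in that setting.

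In females miR-34b-5p was 0.0588, 0.0822, 0.0916, 0.0942 and 0.0974 at 15 weeks (0.0849 ± 0.0156, n = 5), 0.0442, 0.0486, 0.0527, 0.0663 and 0.0880 at 78 weeks (0.0599 ± 0.0177, n = 5) and 0.0612, 0.0616, 0.0756, 0.0962 and 0.132 at 104 weeks (0.0854 ± 0.0298, n = 5). These 3 groups overlapped, and 104 minus 15 weeks gave -0.03 ± 0.27 (log2, 95% interval -0.58 to 0.51). At 2 weeks miR-34b-5p was 0.0798, 0.113, 0.114 and 0.118 in females and 0.0619, 0.0647, 0.0969, 0.0990 and 0.106 in males. The differences from 2 to 8 weeks, -0.10 in females and -0.19 in males, did not pass (limma, adjusted p = 0.987 and 0.724). In the order of levels over the 8 ages, no neighbouring pair was called for miR-34b-5p or miR-34c-5p in either sex.

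**Figure D2:**
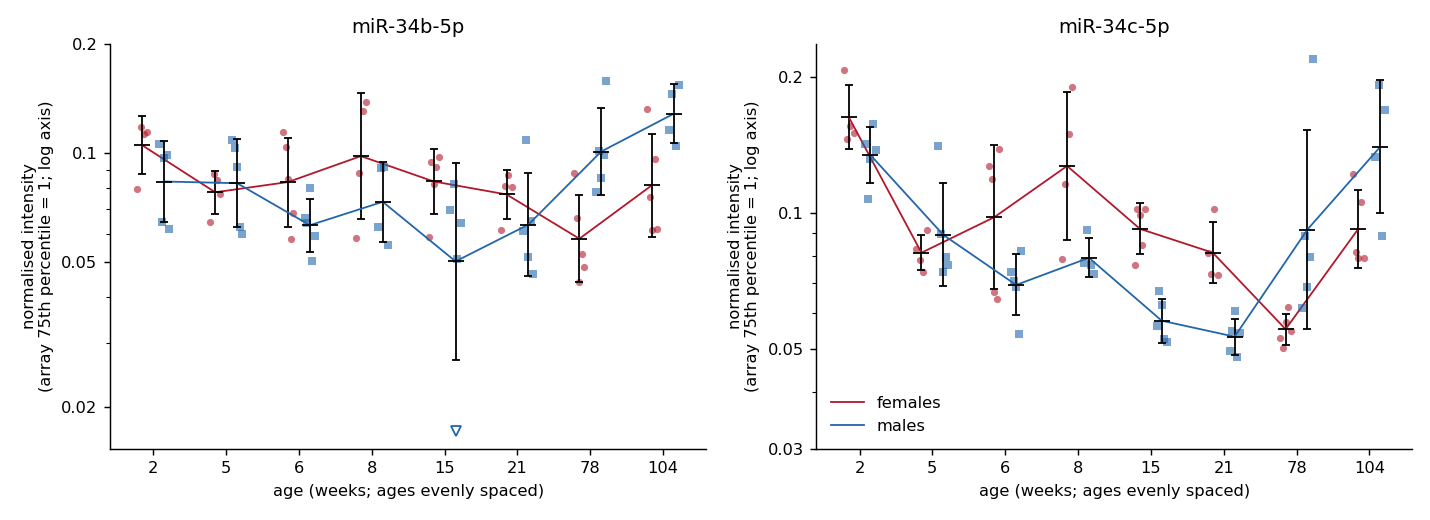
Normalised intensity of miR-34b-5p and miR-34c-5p (log axes) against age in weeks, with ages evenly spaced. Points are single arrays, red circles females and blue squares males, and black bars give the mean ± SD on the log2 scale, with the undetected array drawn as an open triangle at the floor of 0.0171 and included there. The male line lies below the female line at 15 weeks and above it at 78 and 104 weeks in both panels.

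Over all ages, the age test called 2 of the 3 members in females, miR-34a-5p (limma, adjusted p = 2.16e-19) and miR-34c-5p (2.58e-05), where 36.7% of all miRNAs were called, and miR-34b-5p did not pass (0.131). In males it called all 3, miR-34a-5p at 1.16e-17, miR-34c-5p at 1.14e-05 and miR-34b-5p at 0.0106, where 45.3% were called. With both probes summed, the limma adjusted p of miR-34b-5p in females was 0.00357.

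The course over age differed between the sexes for 2 of 3 members, miR-34b-5p (limma, adjusted p = 0.00815) and miR-34c-5p (limma, adjusted p = 0.000105), where 27.7% of miRNAs were called. The 15- to 104-week change was larger in males by 1.39 ± 0.40 (log2) for miR-34b-5p (limma, adjusted p = 0.0122) and by 1.28 ± 0.32 for miR-34c-5p (limma, adjusted p = 0.0029), where 8.04% of miRNAs were called. With both probes summed these differences were 0.82 ± 0.20 (limma, adjusted p = 0.00307) and 0.93 ± 0.24 (limma, adjusted p = 0.00522). Without the 15-week male array on which miR-34b-5p was undetected, the value for miR-34b-5p was 1.0 with a limma adjusted p of 0.0582.

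At single ages, 3 of the 24 sex differences of the family were called. miR-34c-5p was lower in males at 15 weeks, by -0.68 ± 0.22 (log2, 95% interval -1.11 to -0.24), 1.60-fold, with no overlap between the sexes (limma, adjusted p = 0.0392), where 3.54% of miRNAs were called. With both probes summed it was -0.46 (limma, adjusted p = 0.0743), and both probes were detected on 0 of 5 male and 3 of 5 female arrays at that age. The call was lost without any of female replicates 2, 3 or 5 or male replicates 1, 4 or 6. At 21 weeks the sexes again did not overlap for miR-34c-5p, and the difference of -0.62 had a limma adjusted p of 0.0688.

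At 78 weeks the sign was the opposite. miR-34c-5p was higher in males by 0.73 ± 0.22 (log2, 95% interval 0.30 to 1.17), 1.66-fold (limma, adjusted p = 0.0105), and miR-34b-5p by 0.80 ± 0.27 (0.25 to 1.34), 1.74-fold (limma, adjusted p = 0.0308), where 6.75% of miRNAs were called. The lowest 78-week male only just overlapped the highest female for miR-34c-5p, at 0.0614 against 0.0617, and 1 male at 0.219 stood far above the other 4. Both probes of miR-34c-5p were detected on the array of that male and 1 probe alone on the other 4. Without that animal, replicate 6, the differences were 0.42 for miR-34c-5p (limma, adjusted p = 0.150) and 0.64 for miR-34b-5p (limma, adjusted p = 0.130), and neither was called. The call for miR-34b-5p was also lost without any of the female replicates 4, 5 or 6, with values of 0.70 to 0.76. With both probes summed, miR-34c-5p differed by 0.64 (limma, adjusted p = 0.00347) and miR-34b-5p by 0.44 (limma, adjusted p = 0.0170), the latter under the fold for a call. At 104 weeks the differences were 0.60 for miR-34c-5p (limma, adjusted p = 0.0542) and 0.66 for miR-34b-5p (limma, adjusted p = 0.103), and 6.11% of miRNAs were called.

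**Figure D3:**
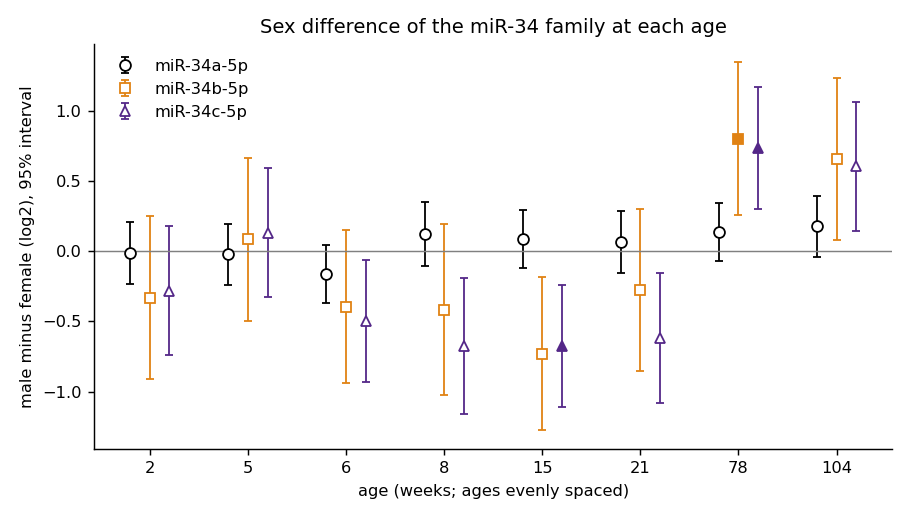
Male minus female difference in log2 normalised intensity of each member at each age in weeks, ages evenly spaced, with 95% intervals from the limma fit. Filled symbols passed the adjusted p and fold thresholds. miR-34a-5p stays between -0.16 and 0.18, while miR-34b-5p and miR-34c-5p lie below 0 at 15 and 21 weeks and above 0 at 78 and 104 weeks.

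On each of 4 slides with both ages, 104-week males exceeded 15-week males for miR-34c-5p, by 0.76 to 1.51 on the log2 scale, and for miR-34b-5p, by 0.73 to 2.61. miR-34c-5p was lower in males on 4 of 4 slides at 15 weeks, by -0.86 to -0.29, and higher in males on 5 of 5 slides at 78 weeks, by 0.21 to 2.0. miR-34b-5p was higher in males on 4 of 5 slides at 78 weeks and lower on 1, with differences from -0.18 to 1.71. With slide as a fixed block the 15-week sex difference of miR-34c-5p was -0.61 with a limma adjusted p of 0.0866.

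miR-34b-5p and miR-34c-5p also varied together among arrays of the same sex and age. Each animal had 1 array, so variation among animals and among arrays cannot be told apart here. Over the 74 arrays, deviations from the group means correlated with Pearson's r of 0.49 (permutation p = 2e-05, 6e-05 after Benjamini-Hochberg adjustment over the 3 pairs) and Spearman's rho of 0.51 (permutation p = 8e-05, adjusted 0.00024). Leaving out the 2 arrays farthest from the median of miR-34b-5p gave r = 0.50. miR-34a-5p correlated more weakly with miR-34b-5p (r = 0.27, permutation p = 0.0094, adjusted 0.0141) and showed no detectable correlation with miR-34c-5p (r = 0.07, permutation p = 0.606). Between miR-34b-5p and miR-34c-5p, r was 0.77 with both probes summed, 0.30 after quantile normalization and 0.99 under normexp background correction with its added offset. That last value does not measure how the pair varied. The offset of 50 dominates dim signals, and both are then divided by the same percentile of the array. The pair shares 21 of 23 bases, and how much of either miRNA hybridised to the probes of the other was not tested.

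**Figure D4:**
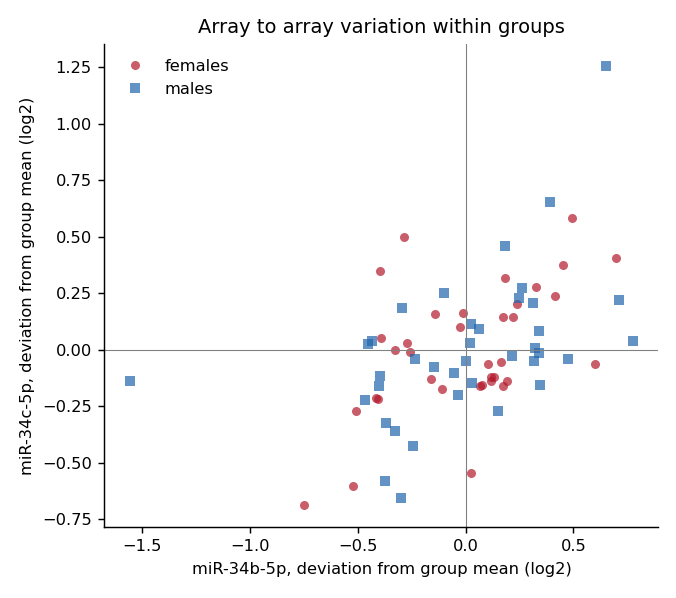
Deviation of each of the 74 arrays from its group mean (log2 normalised intensity) for miR-34b-5p on the x axis and miR-34c-5p on the y axis, red circles females and blue squares males. Points run from lower left to upper right with r = 0.49. The male point far to the left is the array on which miR-34b-5p was undetected and set to the floor.

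The profile over the 16 group means was set against that of the other miRNAs, 227 comparisons for each member, as a description without a test. The profiles most like that of miR-34a-5p were those of miR-7a-5p (r = 0.931), miR-142-3p (0.924), miR-146a-5p (0.902), miR-21-5p (0.888) and miR-425-5p (0.871). miR-142-3p is a marker of blood-forming cells, and miR-146a-5p and miR-21-5p are known from inflammation and injury. For miR-34b-5p and miR-34c-5p the closest profile was that of the other (r = 0.876). Next came miR-150-5p (0.696) for miR-34b-5p and miR-199a-5p (0.808) for miR-34c-5p, a lymphocyte and a mesenchymal miRNA. By contrast, miR-34a-5p had an r of 0.0499 with miR-34b-5p and -0.331 with miR-34c-5p over the 16 group means.

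Some markers of other cells moved over the same ages. From 2 to 8 weeks, when miR-34a-5p first rose, 2 of 4 measured leukocyte miRNAs were called higher in each sex, miR-142-3p and miR-223-3p, where 8.68% of all miRNAs were called higher in females and 15.1% in males. Another of the 4, miR-142-5p, was detected on only 10 of 74 arrays and set to the floor on the rest. The summed normalised intensity of the 4 ran from 1.98 to 2.11 in 2-week and 2.66 to 3.30 in 8-week females, and from 1.67 to 1.84 in 2-week and 2.58 to 3.34 in 8-week males. Of the 6 kidney epithelial markers, 1 was called higher in females and 3 in males over that interval. Late in life the summed normalised intensity of the 4 leukocyte miRNAs measured, of 5 listed, ran from 2.71 to 3.20 in 15-week males, 4.04 to 7.10 in 78-week males and 5.56 to 7.67 in 104-week males, and from 2.44 to 2.65 in 15-week and 3.32 to 3.55 in 104-week females. All 4 were called higher at 104 than at 15 weeks in males and 1 of 4, miR-142-3p, in females, where 7.72% and 2.25% of all miRNAs were called higher. The male rise of miR-142-5p, 2.60 on the log2 scale, rests on few detected arrays and its size depends on the floor. The summed kidney epithelial markers ran from 65.8 to 76.4 in 15-week males and 49.2 to 59.1 in 104-week males. In females they ran from 69.7 to 77.5 at 15 weeks and from 67.9 to 78.6 at 104 weeks. Of the 2 measured erythroid miRNAs, miR-451-5p was also called higher from 15 to 104 weeks, by 1.29 in females and 1.05 in males on the log2 scale. The other, miR-144-3p, was detected on 5 of 74 arrays and was called in neither sex. The liver miR-122-5p was called higher in females over those ages, by 3.31, and lower in males from 2 to 8 weeks, by -3.97 ± 1.02. Its 2-week males had a lowest normalised intensity of 0.397, a median of 0.519 and a highest of 23.6, against 0.0486 to 0.128 in 8-week males. The neuronal miR-9a-5p was called lower from 2 to 8 weeks, by -0.64 in females and -0.70 in males, and the muscle miR-206-3p lower in males from 15 to 104 weeks, by -0.62. The other measured muscle miRNA, miR-133b-3p, was not called there (-0.04). The smooth-muscle miR-143-3p and miR-145-5p and the endothelial miR-126a-3p were called in neither span in either sex. The part of other cells in any of these results was not tested. The miRNAs typical of ciliated epithelium, miR-449a-5p and miR-449c-5p, were at 0 arrays.

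Other miRNAs tied to p53 and to senescence were described from lists drawn up from general knowledge. Among miRNAs raised by p53 or part of its network, 10 of 12 were measured, and from 2 to 8 weeks 1 rose in females, miR-192-5p (log2 difference 0.72 ± 0.09), and 3 rose in males, miR-192-5p (1.37), miR-194-5p (1.29) and miR-200a-3p (0.82), where 8.68% and 15.1% of all miRNAs were called higher. From 15 to 104 weeks none was called in females and 2 fell in males, miR-194-5p (-0.66, limma adjusted p = 4.39e-07) and miR-192-5p (-0.62, limma adjusted p = 2.05e-08), where 5.47% of all miRNAs were called lower. Both are kidney epithelial miRNAs as well. The median of the list was 0.01 in females and -0.18 in males, against 0 over all miRNAs tested.

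Of the miRNAs reported to rise in senescent cells, 11 of 12 were measured. From 2 to 8 weeks 6 rose and 2 fell in each sex, where 8.68% of all miRNAs in females and 15.1% in males were called higher and 12.5% and 14.8% lower. The miR-29 family, which targets collagens, led the rise, with miR-29a-3p higher by 3.08 in females and 3.86 in males and miR-29b-3p by 2.86 and 4.0 (log2), while miR-335 and miR-181a-5p fell. From 15 to 104 weeks 1 rose in females, miR-21-5p (0.64 ± 0.16, limma adjusted p = 0.00402), and 2 rose in males, miR-146b-5p (1.51 ± 0.14, limma adjusted p = 1.32e-13) and miR-21-5p (1.30 ± 0.17, limma adjusted p = 5.09e-09), where 2.25% and 7.72% of all miRNAs were called higher. The list medians over that interval were 0.28 in females and 0.27 in males.

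The miRNAs reported to fall in senescence, the proliferation-linked miR-17-92, miR-106b-25 and related clusters, were all measured, 9 of 9. From 2 to 8 weeks 6 fell in females and 7 in males, including miR-18a-5p by -1.70 and -1.89 and miR-106b-5p by -1.13 and -0.89 (log2), and the list medians were -0.83 and -0.82, where 12.5% and 14.8% of all miRNAs were called lower. From 15 to 104 weeks none of the 9 was called in either sex, with medians of 0.06 and 0.14, and the largest difference was 0.57, for miR-18a-5p in males.

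**Figure D5:**
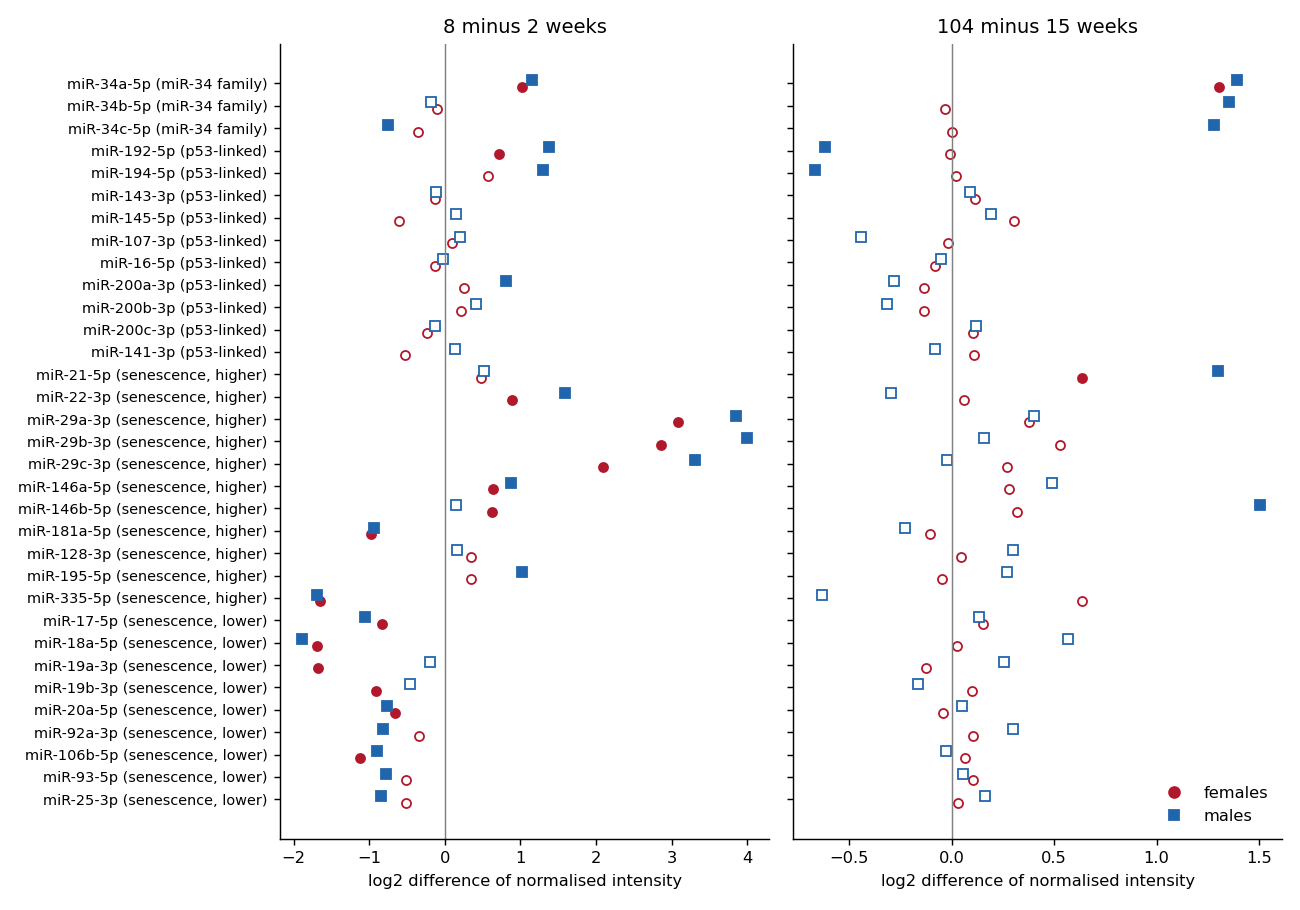
Log2 difference of normalised intensity from 2 to 8 weeks (left) and from 15 to 104 weeks (right) for the family members and the measured miRNAs of the 3 lists, named with their list in brackets. Red circles are females, blue squares males, and filled symbols passed the adjusted p and fold thresholds. In the right panel miR-34a-5p lies at 1.31 and 1.39 while none of the miRNAs reported lower in senescence was called there.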

How the data were processed

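The authors hybridised total RNA of 74 kidneys to 1-colour arrays and read them with Agilent Feature Extraction. The intensities were deposited as total gene signals, which matched the sum over the probes detected on that array, with undetected miRNAs at 0.1. No spot of a member was saturated. A normalised value table of the series was not used, since most of its columns did not correspond to the array of the sample they were listed under.

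Control features were left out and 311 miRNAs detected on at least 1 array were kept. Each array was divided by its 75th percentile over these, values under the floor of 0.0171 were set to it, and log2 values were fitted with limma 3.58.1 in R 4.3.3 in 16 group means (58 residual degrees of freedom), with Benjamini-Hochberg adjustment over all 311. Age was tested by an F test within each sex, sex at each age, and the differing course by an interaction of 7 terms. Calls required an adjusted p under 0.05 and 1.5-fold. Errors of differences are SE, those of levels SD. Correlations used 100000 permutations within groups. Named genes were the family members, the members of the lists called in the 2 spans, and the 5 most similar profiles. The members and lists were chosen with earlier results of these data known. Alternatives were background, scaling, floor, filters, probes, slide, the methods' tests and leaving out each array. Scripts were tested on simulated data.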

Additional observations from a re-analysis of the deposited data

Results flagged for a closer look

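In 2-week females, 1 of 4 animals, replicate 3, lay apart for miR-34b-5p, at 0.0798 against 0.113 to 0.118, a gap of 0.878 of the group's range. Both probes of miR-34b-5p were detected on 3 of the 4 arrays of that group and 1 probe alone on 1. In 78-week males replicate 6 lay apart for miR-34c-5p, at 0.219 against 0.0614 to 0.0887, a gap of 0.711 of the range. Its total gene signal of 36.1 exceeded the highest signal of a single probe, 29.3, and so summed both probes. On the other arrays of that group 1 probe alone was detected. Such gaps arose in 2 of 48 member and group combinations tested, and chance marks about 1 in 20. The course over age differed between the sexes for miR-34b-5p (limma, adjusted p = 0.00815) and for miR-34c-5p (limma, adjusted p = 0.000105), by the interaction test.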

How the results depend on the processing

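Under normexp with an offset of 50, which compresses dim miRNAs by construction, the age test called 1 member in females and 1 in males, the interaction 0 and the sex differences 0, and the rise of miR-34a-5p from 2 to 8 weeks in females was 0.42 and that from 21 to 78 weeks in females 0.49, both under the fold. Directions reversed there for miR-34b-5p in the male 15- to 104-week difference (-0.0150), the 78-week sex difference (-0.11) and the sex contrast of the change from 15 to 104 weeks (-0.0899) and to 78 weeks (-0.17), and for miR-34c-5p in the 15- and 78-week sex differences (0.0310 and -0.0745), those contrasts (-0.0645 and -0.11) and the female differences of 78 minus 15 weeks (0.18) and 104 minus 78 weeks (-0.10). In the male 15- to 104-week difference the median of all miRNAs was itself -0.19 under normexp, against 0 in the main processing. Sex differences called numbered 1 with all miRNAs of the array, 1 with both probes summed, which was chosen after seeing the data, and 0 with the first probe alone, where the interaction also called 0. Apart from leaving out arrays, 16 alternatives covered each sex difference. The 15-week call of miR-34c-5p was lost in 8 of them and reversed in 1. At 78 weeks the call of miR-34b-5p was lost in 6 and reversed in 1, and that of miR-34c-5p lost in 2 and reversed in 1. The female fall of miR-34c-5p from 15 to 78 weeks was lost in 5 of 15 and reversed in 1. A fit of ages 2 to 8 weeks alone, with fewer ages tested, called 1 member in females and 0 in the interaction.

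Leaving out each array in turn gave 2 to 5 called sex differences, the 5 without 104-week female replicate 1, and 2 to 3 members called in females. The rise of miR-34a-5p from 15 to 104 weeks then ran from 1.25 to 1.35 in females and 1.30 to 1.46 in males. Replicate numbers did not pair the animals, with a mean correlation of 0.0377 over 28 same-numbered pairs and -0.00385 over 143 others. With the number as a replicate block, the rise of miR-34a-5p from 15 to 104 weeks was 1.31 in females and 1.41 in males, and no call among the results changed.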
